A study of Homo sapiens with 20 samples.

Results

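Ribosome biogenesis genes were followed in Jurkat, a human T cell leukemia line, and in JinB8, a CD47-deficient somatic mutant line derived from Jurkat. The list was made by gene name and held 45 genes: nucleolar ribosome assembly factors, subunits and regulators of RNA polymerase I, and the importin IPO4. All 45 were found among the 60719 genes of the count table, and all 45 were among the 18387 genes that passed a filter on low counts, with 93 to 39270 counts per library. Poly(A) RNA was sequenced from 20 libraries, 10 per line. Each line gave 1 untreated library at 1 h and, at 1, 3 and 6 h, 1 library each from cells plated on immobilized anti-CD3 and anti-CD28 (CD3+CD28), from cells on both antibodies with thrombospondin-1, a secreted ligand of CD47 (CD3+CD28+TSP1), and from cells given thrombospondin-1 alone (TSP1). Anti-CD28 was used at 4 μg/mL and TSP1 at 1 μg/mL, and all cells were moved to serum-free HITES medium. The labels do not say that libraries came from separate cultures. A group below is a line at a time, with 4 libraries at 1 h, 3 at 3 h and 3 at 6 h that differ in treatment, so p-values measure the spread among those libraries. JinB8 is 1 mutant line, so a difference between the lines and an effect of CD47 cannot be told apart. No untreated library of 3 h or 6 h was analysed here, so time in culture and length of treatment cannot be told apart. Since all cells were moved to the new medium, time after that change cannot be told apart from them either.

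Ribosomes are built in the nucleolus. RNA polymerase I, with the factors UBTF and RRN3, transcribes the ribosomal RNA precursor, and small nucleolar ribonucleoproteins (snoRNPs) modify it: box C/D particles methylate it and box H/ACA particles convert uridines to pseudouridines. Processome proteins then cut and fold the small subunit RNA, a further set matures the large subunit, and importins bring ribosomal proteins into the nucleus. T cells raise this program when they leave rest and grow.

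The promoters of 5 members are shown first. RRP9, IPO4, MYBBP1A and UTP20 are the 4 members with the largest rise from 1 h to 6 h in Jurkat, UTP4 is one that was not called there, and all 5 hold the same short element. The windows are RefSeq promoters of GRCh38.p14, 300 bases long, 5′ to 3′ on the strand of the gene, with 250 bases before the start site. Capitals mark the E-box CACGTG, which reads the same on both strands and is the textbook binding sequence of MYC and related proteins.
RRP9, chr3:51941855-51942154, minus strand: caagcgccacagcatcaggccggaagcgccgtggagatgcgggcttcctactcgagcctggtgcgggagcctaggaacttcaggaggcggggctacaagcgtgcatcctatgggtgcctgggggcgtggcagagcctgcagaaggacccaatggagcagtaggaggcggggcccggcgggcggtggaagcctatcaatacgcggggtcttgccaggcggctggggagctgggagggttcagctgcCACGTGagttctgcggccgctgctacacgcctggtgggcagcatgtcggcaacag
IPO4, chr14:24188767-24189066, minus strand: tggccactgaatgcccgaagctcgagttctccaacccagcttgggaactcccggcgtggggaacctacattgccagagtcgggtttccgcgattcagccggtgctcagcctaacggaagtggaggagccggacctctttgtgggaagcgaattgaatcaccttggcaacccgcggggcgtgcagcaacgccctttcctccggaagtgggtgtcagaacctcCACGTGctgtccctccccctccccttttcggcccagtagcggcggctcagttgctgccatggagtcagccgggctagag
MYBBP1A, chr17:4555335-4555634, minus strand: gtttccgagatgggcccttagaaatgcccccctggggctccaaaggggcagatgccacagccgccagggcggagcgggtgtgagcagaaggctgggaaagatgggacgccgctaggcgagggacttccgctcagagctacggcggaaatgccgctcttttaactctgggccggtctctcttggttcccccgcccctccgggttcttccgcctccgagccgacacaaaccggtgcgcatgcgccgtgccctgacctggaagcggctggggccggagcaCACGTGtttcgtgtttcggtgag
UTP20, chr12:101279855-101280154, plus strand: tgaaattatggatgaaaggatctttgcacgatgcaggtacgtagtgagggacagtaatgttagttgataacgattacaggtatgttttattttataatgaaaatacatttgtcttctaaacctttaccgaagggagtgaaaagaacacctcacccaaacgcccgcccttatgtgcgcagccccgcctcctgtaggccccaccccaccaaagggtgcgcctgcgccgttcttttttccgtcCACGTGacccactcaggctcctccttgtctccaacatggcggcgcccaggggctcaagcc
UTP4, chr16:69132399-69132698, plus strand: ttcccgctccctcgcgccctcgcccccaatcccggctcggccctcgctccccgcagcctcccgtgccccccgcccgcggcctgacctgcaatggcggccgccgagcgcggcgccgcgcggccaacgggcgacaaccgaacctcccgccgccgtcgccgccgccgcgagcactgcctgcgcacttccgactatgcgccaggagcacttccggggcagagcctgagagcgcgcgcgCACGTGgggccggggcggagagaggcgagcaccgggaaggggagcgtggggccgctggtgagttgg

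A RefSeq promoter was matched by symbol for 39 of the 45 members, and 18 of these (46.2%) held CACGTG. Some genes have several start sites (47 windows for the 39 members), and a gene was counted once if any of its windows held the element. It was in 12.2% of 11376 tested genes with a promoter and in 8.77% of all 27305 genes with a promoter window of that length. In 17 of the 18 members it began within 50 bases of a start site (94.4%), against 41.9% of the 1393 tested genes that held it. Other elements were searched on both strands: CCAAT was in 38.5% of the members and 43.2% of the tested genes, GGGCGG in 74.4% and 74.0%, and TATAAA in 2.56% and 9.04%. The 18 members with CACGTG had a median log2 fold change from 1 h to 6 h of 0.84 in Jurkat (range -0.02 to 1.90) and 1.12 in JinB8, and the 21 without it 0.81 (range -0.13 to 1.43) and 0.89. The element was thus present in members that rose most and in members that were not called. These are matches of letters, and no binding was measured.

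**Figure D1:**
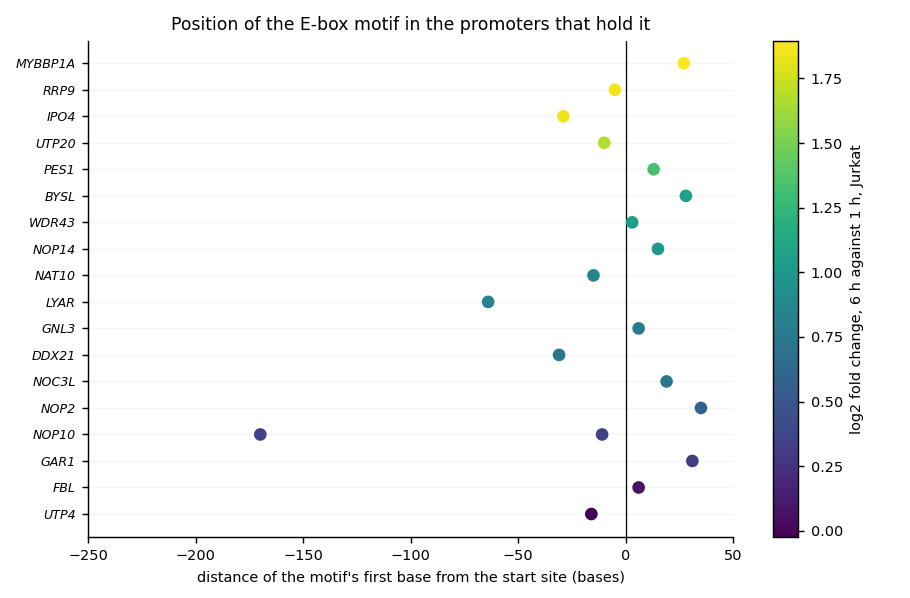
Distance in bases from the start site (0, vertical line) to the first base of each CACGTG in the 18 member promoters that hold it, with genes ordered and coloured by their log2 fold change from 1 h to 6 h in Jurkat. In 17 of the 18 promoters a match lies within 50 bases of the start site, from MYBBP1A at the top of the order to UTP4 at the bottom.

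The libraries held 16107921 to 31737616 counts (median 23802637), and 3 counts, taken as the floor of detection, corresponded to 0.0979 to 0.154 CPM (counts scaled to library size). CD47 RNA, which checks the labels, was at 250 to 371 CPM in Jurkat and 123 to 165 CPM in JinB8 (log2 fold change -1.07, SE 0.044, adjusted p = 1.97e-14). All 10 T cell markers were above 1 CPM in every library. The B cell marker list summed to 34.8 to 55.9 CPM in Jurkat and 5.66 to 13.5 CPM in JinB8. CD79A gave 92.9% to 96.9% of that sum in Jurkat and 65.1% to 83.2% in JinB8, while the defining marker MS4A1 stayed at or below 0.163 CPM, and myeloid, fibroblast and epithelial lists summed to at most 1.75, 7.95 and 3.72 CPM. The part of these transcripts in the results was not tested. The JinB8 library with CD3+CD28+TSP1 at 3 h stood apart, with the lowest total, the highest mitochondrial share (0.663%) and the lowest mean correlation with its own group (0.9824). NCL in it was at 430.9 CPM, against 614.8 and 642.7 CPM in the other libraries of its group.

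Levels between genes were compared per transcript length, as TPM (abundance scaled to transcript length and library). NPM1, a histone chaperone of the nucleolus, was the most abundant member at 919 TPM (mean of 20 libraries, range 757 to 1050), followed by NCL (247 TPM), NOP56 (213 TPM), NOP58 (128 TPM) and FBL (109 TPM). POLR1A, the largest subunit of RNA polymerase I, was the scarcest at 7.16 TPM, after NOC4L at 7.64 TPM and POLR1B at 12.9 TPM. Neighbours overlapped, since NOP58 ranged from 86.7 to 176 TPM and FBL from 94.3 to 130 TPM. Counts of NPM1 are uncertain because 49 annotated genes are named as its pseudogenes, and RRN3 and DDX18 have 5 each. UTP4, IPO4 and NOP2 each overlap 1 other coding gene on the same strand. A further doubt is strand, since the setting used for counting is not known and 16 members overlap coding genes on the other strand, among them POLR1C and NIP7 with 3 such genes each. Reads could be shared in all of these.

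Together the members took a growing share of the counts. It was 0.46% to 0.497% in Jurkat and 0.532% to 0.545% in JinB8 at 1 h, and 0.718% to 0.733% and 0.954% to 0.991% at 6 h, so the lines did not overlap at either time. In bulk RNA, more RNA per cell and more cells with that RNA cannot be told apart. Over the 10 libraries of a line, the correlation of a member's log2 CPM with the mean of the other members had a median of 0.96 in Jurkat and 0.946 in JinB8 and was over 0.9 for 34 and 36 members. It was lowest for NPM1 (-0.381), UTP4 (-0.0803), NOB1 (0.24) and FBL (0.377) in Jurkat and for NOP10 (0.406) and RRN3 (0.474) in JinB8. These points share their time points, and the correlation was not computed for other genes, so the values are a description.

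**Figure D2:**
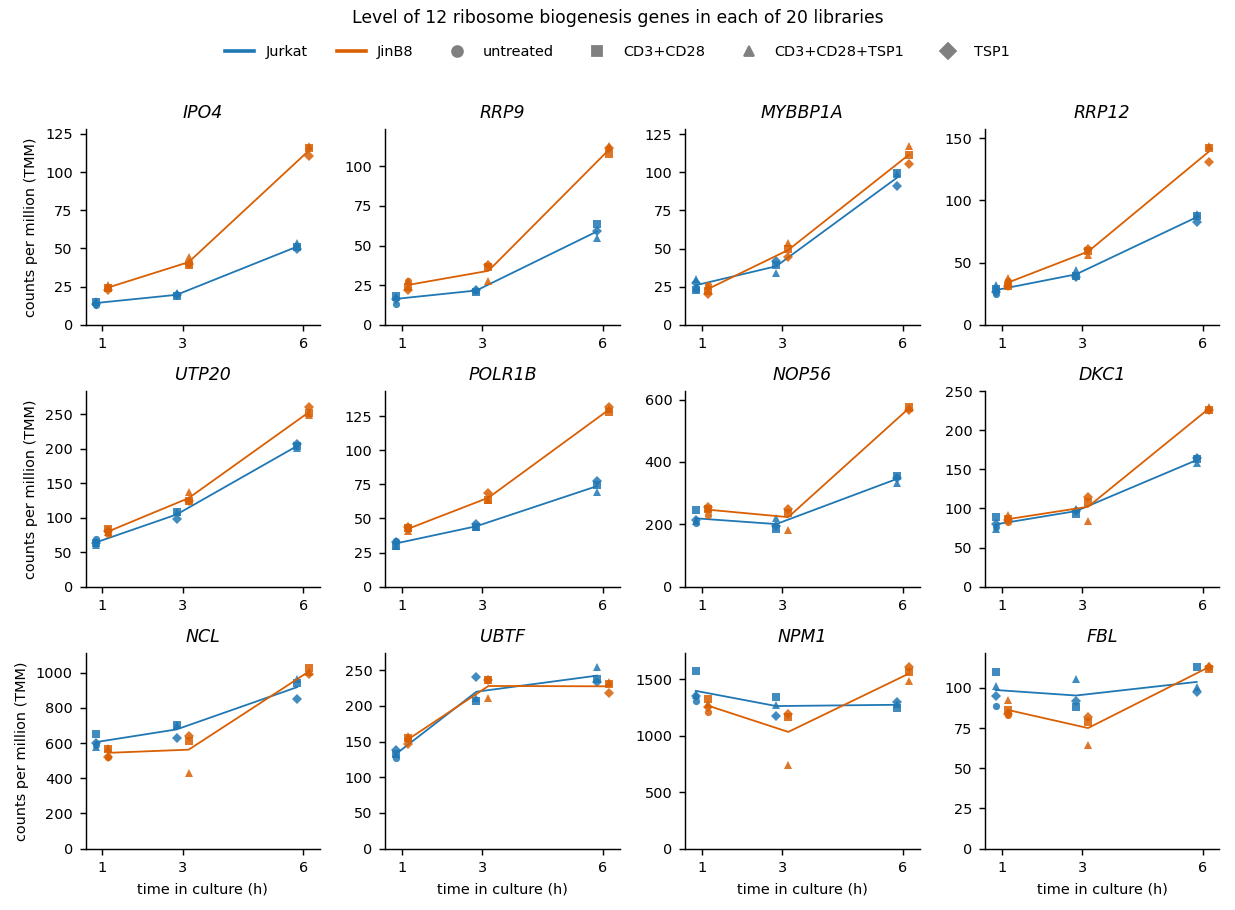
CPM with TMM scaling (vertical axes from 0) of 12 members against time in culture in Jurkat (blue) and JinB8 (orange), where each point is a library, its shape the treatment, and lines join group means. IPO4 and POLR1B were higher in every JinB8 library than in every Jurkat library of the same time, and NPM1 and FBL changed little in Jurkat.

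The first comparison asked how the members changed from 1 h to 6 h in each line. Most rose, and none was called lower. In Jurkat 40 of 45 members were higher and 0 lower, with 24.8% of all genes tested higher and 23.6% lower. In JinB8 42 were higher and 0 lower, with 24.3% of all genes tested higher and 25.2% lower. The median log2 fold change of the members was 0.82 in Jurkat and 1.00 in JinB8, while the median over all genes lay between -0.05 and 0.03 in each line and time comparison. Without the library that stood apart the counts were 41 and 44 (26.7% and 26% of all genes tested higher). The mitochondrial share of the counts was lower at 6 h (0.38% to 0.423%) than at 1 h (0.584% to 0.643%) in Jurkat with no overlap, and at 0.339% to 0.51% against 0.498% to 0.603% in JinB8 with overlap, and its part in the rise was not tested. In CD3+CD28 and CD3+CD28+TSP1 libraries alone, 2 per group, 37 members were higher in Jurkat and 41 in JinB8 (17.6% and 17.1% of all genes tested, medians 0.80 and 0.96). Untreated and TSP1 libraries alone left 1 library per line at 6 h against 2 at 1 h, and that library is assumed to vary like the other groups. They gave 36 and 41 (10.4% and 9.7% of all genes tested, medians 0.84 and 1.03).

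Of the 4 regulators and import factors, MYBBP1A and IPO4 rose most. MYBBP1A, a nucleolar MYB-binding protein that takes part in ribosomal RNA processing, was at 23.2, 23.1, 29.8 and 27.5 CPM in Jurkat at 1 h and at 99.6, 98.99 and 90.8 CPM at 6 h. Its JinB8 libraries were at 25.9, 22.01, 25.3 and 20.3 CPM and then at 112, 117 and 106 CPM. No 6 h library overlapped a 1 h library, and the log2 fold change was 1.90 in Jurkat (SE 0.1, adjusted p = 1.29e-11) and 2.25 in JinB8 (SE 0.1, adjusted p = 1.19e-12). IPO4, which carries histones and ribosomal proteins into the nucleus, was at 12.9, 14.7, 15.5 and 13.7 CPM in Jurkat at 1 h and 50.6, 53.2 and 49.8 CPM at 6 h. JinB8 had it at 24.8, 23.8, 26.2 and 22.7 CPM and then 116, 117 and 111 CPM. These groups did not overlap either, with log2 fold changes of 1.85 (SE 0.072) and 2.23 (SE 0.07). The RNA helicase DDX21 rose by 0.76 and 1.29 on the log2 scale in Jurkat and JinB8, and the nucleolar zinc finger protein LYAR by 0.82 and 1.00.

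Among the snoRNP proteins the change was uneven. RRP9, a protein of the U3 particle that serves the first cuts of the precursor, was at 13.1, 18.4, 17.4 and 16.3 CPM in Jurkat at 1 h and 63.4, 54.5 and 58.9 CPM at 6 h. In JinB8 it was at 27.4, 23.7, 27.4 and 21.99 CPM and then 108, 113 and 112 CPM. Every 6 h library was above every 1 h library, with log2 fold changes of 1.85 (SE 0.11) and 2.14 (SE 0.11). The core box C/D proteins moved less: NOP56 rose by 0.66 in Jurkat and 1.21 in JinB8, and NOP58 by 0.32 and 0.91. The Jurkat call for NOP58 was lost without the 1 h CD3+CD28+TSP1, the 6 h CD3+CD28 or the 6 h TSP1 library of Jurkat (adjusted p up to 0.068). FBL, the methyltransferase of the particle, was at 89.04, 109.9, 101 and 94.98 CPM in Jurkat at 1 h and 113, 101 and 97.4 CPM at 6 h. Those ranges overlapped (log2 fold change 0.072, SE 0.087, adjusted p = 0.525), whereas FBL rose in JinB8 by 0.39 (SE 0.086, adjusted p = 0.000841).

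In the box H/ACA particle the pseudouridine synthase DKC1 rose by 1.02 in Jurkat and 1.40 in JinB8, and its partner NHP2 by 1.43 and 1.21. The small partner NOP10 was at 28.3, 41.7, 34.1 and 32.05 CPM in Jurkat at 1 h and 46.8, 41.7 and 41.2 CPM at 6 h, and 1 of the 1 h libraries lay within the 6 h range (log2 fold change 0.34, adjusted p = 0.0356). In JinB8 NOP10 had a log2 fold change of 0.11 (adjusted p = 0.526). GAR1 had 0.32 in Jurkat (adjusted p = 0.0165) and 0.23 in JinB8 (adjusted p = 0.0752). The Jurkat calls were not stable when single libraries were left out: NOP10 lost its call without any of 8 (adjusted p up to 0.166) and GAR1 without any of 4 (adjusted p up to 0.12). Without the 3 h JinB8 library that stood apart GAR1 was called in both lines (adjusted p = 0.00423 in Jurkat and 0.0314 in JinB8). NOP10 was then called in Jurkat (0.35, adjusted p = 0.0111) and not in JinB8 (0.11, adjusted p = 0.424).

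Of the 5 RNA polymerase I genes among the members, 4 were called higher at 6 h in each line, beside 24.8% (Jurkat) and 24.3% (JinB8) of all genes tested. POLR1B, the second largest subunit, was at 33.8, 30.1, 29.9 and 32.97 CPM in Jurkat at 1 h and 74.7, 69.3 and 77.3 CPM at 6 h. Its JinB8 libraries were at 42, 42.8, 41.1 and 43.7 CPM and then 128, 130.3 and 132 CPM. It rose by 1.22 and 1.62 on the log2 scale, POLR1A by 1.13 and 1.3, and POLR1C, which polymerases I and III share, by 0.81 and 1.00. The initiation factor RRN3 did not pass the threshold in Jurkat (0.21, adjusted p = 0.0558) or JinB8 (0.15, adjusted p = 0.179). It was called in both when the JinB8 library that stood apart at 3 h was left out, with like values (0.21, adjusted p = 0.00113, and 0.15, adjusted p = 0.016). UBTF, which binds ribosomal DNA, rose early, from 128 to 138 CPM at 1 h to 207 to 241 CPM at 3 h and 234 to 255 CPM at 6 h in Jurkat. In JinB8 the ranges were 147 to 158, 211 to 237 and 218 to 233 CPM, so that in both lines its 3 h libraries lay above all 1 h libraries and overlapped the 6 h libraries.

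All 11 large subunit factors rose in Jurkat and all 11 in JinB8, as did 11 and 13 of the 13 small subunit factors, beside 24.8% and 24.3% of all genes tested. UTP20, a processome scaffold, was at 68.5, 63.7, 61 and 63.8 CPM in Jurkat at 1 h and 204, 202 and 207 CPM at 6 h. JinB8 had it at 76.4, 84.2, 78.8 and 80.7 CPM and then 252, 249 and 260.2 CPM. Its rise was of like size in the lines, 1.67 and 1.66. RRP12, which serves export of both subunits, rose by 1.64 and 2.04, and the processome protein HEATR1 by 0.64 and 0.68. The complex of PES1, BOP1 and WDR12, which acts on the large subunit, rose by 1.33, 1.57 and 1.01 in Jurkat and by 1.39, 1.81 and 0.89 in JinB8. The large subunit helicase DDX18 rose least of its role in JinB8, by 0.48.

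The small subunit factors not called in Jurkat were UTP4 and NOB1. UTP4, a processome protein, was at 27.1, 28.6, 27.6 and 25.8 CPM in Jurkat at 1 h and 26.8, 25.6 and 28.2 CPM at 6 h (log2 fold change -0.022, SE 0.1, adjusted p = 0.877). In JinB8 it was at 20.9, 26.4, 24.9 and 24.4 CPM and then 35.7, 39.04 and 37.5 CPM (0.63, adjusted p = 2.58e-05). The Jurkat groups overlapped and the JinB8 groups did not. NOB1, the nuclease of the last cut of small subunit RNA, was at 38.6, 41.4, 39.9 and 43.7 CPM in Jurkat at 1 h and 41.8, 40.6 and 42.2 CPM at 6 h (0.023, SE 0.064, adjusted p = 0.799). Its JinB8 libraries were at 47.2, 46.2, 49.6 and 43.5 CPM and then 68.5, 68.2 and 66.4 CPM (0.54, adjusted p = 4.97e-07). As for UTP4, only the JinB8 groups were apart.

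Of the 4 nucleolar phosphoproteins, NPM1 had the smallest change in value and NOLC1 the largest. NPM1 was at 1304, 1578, 1360 and 1351 CPM in Jurkat at 1 h and 1243, 1281 and 1300 CPM at 6 h. All 6 h libraries were below all 1 h libraries, but the difference did not pass the test (log2 fold change -0.13, SE 0.12, adjusted p = 0.366). In JinB8 NPM1 was at 1208, 1324, 1283 and 1255 CPM and then 1562, 1484 and 1608 CPM (0.29, SE 0.12, adjusted p = 0.0423), a call lost without any single 1 h or 6 h library of JinB8 (adjusted p up to 0.1). These JinB8 groups did not overlap, and without the library that stood apart NPM1 had 0.29 there (adjusted p = 0.000523). NCL, which binds the precursor, rose by 0.60 in Jurkat and 0.89 in JinB8, the snoRNP chaperone NOLC1 by 0.69 and 1.17, and NPM3 by 0.52 and 0.77.

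More members rose between 3 h and 6 h than between 1 h and 3 h. These intervals differ in length, and the 1 h groups hold more libraries than the others, so the counts and medians are not rates. From 1 h to 3 h 19 were higher and 1 lower in Jurkat, with 16.5% of all genes tested higher and 16.1% lower, and 19 were higher and 0 lower in JinB8, with 17.1% of all genes tested higher and 18.0% lower. From 3 h to 6 h 36 were higher and 0 lower in Jurkat, with 18.2% of all genes tested higher and 16.7% lower, and 42 were higher and 0 lower in JinB8, with 16.1% of all genes tested higher and 18.1% lower. The medians were 0.20 and 0.24 in the first interval and 0.67 and 0.84 in the second. Without the library that stood apart, the first interval gave 26 higher and 2 lower in Jurkat and 29 higher and 0 lower in JinB8 (median 0.33), and the second 37 higher and 0 lower in Jurkat and 41 higher and 0 lower in JinB8 (median 0.78). Of all genes tested these fits called 19.4% and 19.3%, 15.2% and 16.1%, 21% and 19.4% and 15.2% and 17.8% higher and lower, in that order. Another library moved JinB8 the other way: without its 3 h TSP1 library the median of the first interval was 0.15. UBTF rose by 0.73 and 0.57 in the first interval and had 0.14 and -0.0031 in the second. RRP9 was late, with 0.41 and 0.44 and then 1.45 and 1.70. NOB1 was the member that fell early in Jurkat, to 31.1, 31.4 and 29.3 CPM at 3 h (-0.42, SE 0.066, adjusted p = 5.15e-05).

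**Figure D3:**
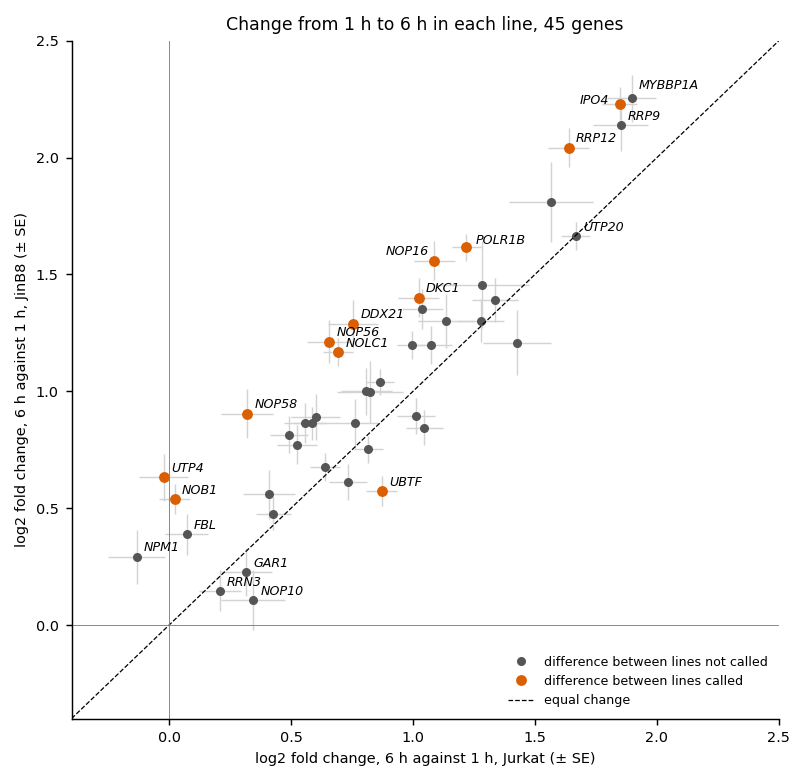
Log2 fold change of 6 h against 1 h for the 45 members, in Jurkat (horizontal axis) and JinB8 (vertical axis), with bars of 1 SE and a dashed line of equal change. Orange marks the 12 members whose change differed between the lines, 11 above the dashed line and UBTF below it.

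The second comparison asked whether the lines differed. Most members were higher in JinB8. Over all times 36 of 45 were higher and 1 lower, with 31.5% of all genes tested higher and 28.8% lower, and their median log2 fold change was 0.28. By time, 25 higher and 0 lower were called at 1 h (24.6% of all genes tested higher and 20.7% lower), 23 higher and 3 lower at 3 h (23.1% of all genes tested higher and 20% lower) and 31 higher and 0 lower at 6 h (21.8% of all genes tested higher and 21.6% lower), with medians of 0.24, 0.27 and 0.42. Without the library that stood apart these became 30 higher and 5 lower, 31 higher and 2 lower and 33 higher and 0 lower, with medians of 0.24, 0.34 and 0.42, and over all times 35 higher and 1 lower with a median of 0.31. Of all genes tested these fits called 26.9% and 23.4% higher and lower at 1 h, 22.6% and 18.8% at 3 h, 24.3% and 24.2% at 6 h and 32.1% and 30.1% over all times. With no time term in the fit, 10 libraries against 10 gave 10 members higher and 0 lower (20.7% and 18.8% of all genes tested). In the JinB8 library that stood apart 21 of 45 members were above the Jurkat library of the same treatment and time, against 33 to 43 in the other 9 matches. Of the members, 14 were higher in JinB8 in all 10 matches (31.1%, against 15.6% of all genes tested), among them IPO4, RRP9, POLR1A, POLR1B, POLR1C, UTP20, RRP12 and RRP1B.

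IPO4 differed most. At 3 h it was at 18.5, 20.6 and 19.6 CPM in Jurkat and 39.03, 44.1 and 39.9 CPM in JinB8, and with the values at 1 h and 6 h above, no library of a line overlapped the other line at the same time. Its log2 fold change was 1.00 over all times (SE 0.043, adjusted p = 3.51e-14), 0.78 at 1 h, 1.07 at 3 h and 1.16 at 6 h. RRP9 followed with 0.73 (SE 0.066, adjusted p = 6.21e-09), POLR1B with 0.60 (SE 0.035, adjusted p = 7.39e-12), and POLR1C with 0.58 (SE 0.062, adjusted p = 7.66e-08). POLR1C was at 23.8, 29.5, 23.6 and 20.9 CPM in Jurkat and 36.3, 36.2, 36.7 and 31.9 CPM in JinB8 at 1 h, and at 44.3, 41.3 and 42.9 and 68.1, 73.2 and 70.3 CPM at 6 h, with no overlap at either time. RRP1B, a large subunit factor, differed by a like amount at each time, 0.61, 0.57 and 0.55.

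By role, 13 of 13 small subunit factors, 10 of 11 large subunit factors, 4 of 5 polymerase I genes, 3 of 4 box H/ACA proteins and 3 of 4 regulators and import factors were higher in JinB8 over all times, as were 2 of 4 box C/D proteins, with 1 lower, and 1 of 4 phosphoproteins, beside 31.5% of all genes tested higher and 28.8% lower. Among the small subunit factors UTP4 had the smallest difference (0.14, adjusted p = 0.047), which lost its call without any of 17 single libraries and was 0.085 without the library that stood apart. DDX18 (-0.023, adjusted p = 0.654), UBTF (0.056, adjusted p = 0.214) and MYBBP1A (0.14, adjusted p = 0.0506) did not pass. NHP2 and NOP58 did not pass either.

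Over all times 5 members had a value below 0, and of these FBL was called. At 3 h FBL was at 88.2, 106 and 91.95 CPM in Jurkat and 78.8, 64.6 and 81.6 CPM in JinB8, below every Jurkat library. Over all times it was lower (-0.14, SE 0.051, adjusted p = 0.025), and with library totals alone in place of TMM the value was -0.042 (adjusted p = 0.339). NPM3, NCL and NPM1 had -0.10 (adjusted p = 0.0735), -0.10 (adjusted p = 0.171) and -0.049 (adjusted p = 0.556) over all times. With the library that stood apart left out, FBL had -0.11 (adjusted p = 0.0467), NPM3 -0.077, NCL -0.041 and NPM1 0.016. With limma voom NPM1 was called in the other direction (0.072, adjusted p = 0.0379). The fifth was DDX18, given above. NOLC1, also a phosphoprotein, was higher in JinB8 (0.23, adjusted p = 1.06e-05), and NOP58 had -0.17 at 1 h, -0.17 at 3 h and 0.42 at 6 h, or -0.17 (adjusted p = 0.0263), -0.0013 (adjusted p = 0.991) and 0.42 with that library left out. FBL, NPM3 and NCL were the 3 members lower at 3 h, at -0.34, -0.36 and -0.27. Without the library that stood apart these were -0.25 (adjusted p = 0.0294), -0.28 (adjusted p = 0.0157) and -0.11 (adjusted p = 0.242), so NCL was no longer called.

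**Figure D4:**
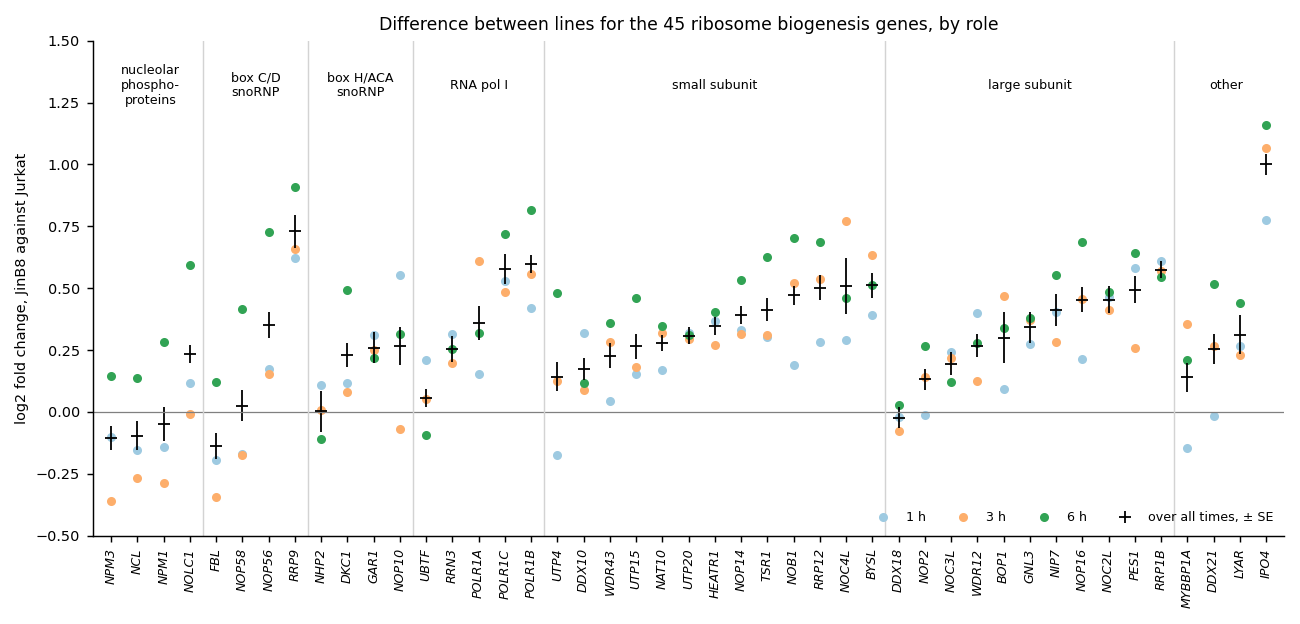
Log2 fold change of JinB8 against Jurkat for each of the 45 members by role, at 1 h (blue), 3 h (orange) and 6 h (green), with the value over all times and its SE in black. IPO4 is highest at each time, and NPM3, NCL, NPM1 and FBL lie below 0 at 1 h and 3 h and above 0 at 6 h.

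The third comparison asked whether the change with time differed between the lines, as an interaction. From 1 h to 6 h, 11 members rose more in JinB8 and 1 rose less, with 5.32% of all genes tested higher and 9.27% lower. The median difference of the members was 0.20. Without the library that stood apart the counts were 18 higher and 1 lower (7.79% and 13% of all genes tested). Voom gave 23 and 0 (6.42% and 8.5%), upper-quartile factors 19 and 0 (7.59% and 6.73%) and a filter of 1 CPM in every library 18 and 1 (8.8% and 11.3%). UTP4 differed by 0.65 (SE 0.14, adjusted p = 0.00409) and NOB1 by 0.52 (SE 0.09, adjusted p = 0.000599), as their values above show. NOP56 was at 206, 247, 209 and 215 CPM in Jurkat and 230, 250.4, 251 and 256 CPM in JinB8 at 1 h, where the lines overlapped, and at 355, 334 and 348 and 578, 574 and 566 CPM at 6 h, where they did not (0.56, SE 0.13, adjusted p = 0.00589). NOLC1 was at 142, 152, 135 and 139 and 147, 160.1, 155 and 153 CPM at 1 h and at 232, 233 and 224 and 343, 350.5 and 345 CPM at 6 h, with the same pattern (0.47, adjusted p = 0.000859). POLR1B differed by 0.40 (adjusted p = 0.00305).

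NOP58, DDX21, NOP16, RRP12, IPO4 and DKC1 also rose more in JinB8, by 0.59, 0.53, 0.47, 0.40, 0.38 and 0.38 on the log2 scale. UBTF rose less (-0.30, SE 0.091, adjusted p = 0.0316). Calls not stable when single libraries were left out were those of UBTF (lost without any of 12, adjusted p up to 0.147), DKC1 (6, up to 0.0868) and RRP12 (3, up to 0.0762). DKC1 was called without the library that stood apart (0.37, adjusted p = 0.00229). With 2 libraries per group, the antibody libraries alone gave no call for any member (1.8% of all genes tested higher and 2.83% lower), and neither did the others alone, with 1 library per line at 6 h (0.0264% and 0.0317%). Chosen in the same libraries, the 12 members' values in these subsets are a description: those of the 11 that rose more ran from 0.36 to 0.64 with antibodies and from 0.27 to 0.65 without. UBTF had -0.33 and -0.27. From 1 h to 3 h 10 of 45 members had an unadjusted p under 0.05, as did 3595 of the 18387 genes tested. After adjustment 1 member differed upward and 0 downward, with 1.5% of all genes tested higher and 2.05% lower. It was NOB1 (0.33, SE 0.091, adjusted p = 0.0483), whose call was lost without any of 9 single libraries (adjusted p up to 0.113) and whose value was 0.38 without the library that stood apart. MYBBP1A (0.50, adjusted p = 0.0598), NOP10 (-0.62, adjusted p = 0.0711), IPO4 (0.29, adjusted p = 0.129) and POLR1A (0.46, adjusted p = 0.13) came next. Leaving out the library that stood apart gave MYBBP1A 0.44, NOP10 -0.46 and IPO4 0.23, and 3 members, DDX21, NOB1 and WDR43, were called, all upward (1.53% and 1.84% of all genes tested higher and lower). POLR1A turned on 1 library, since at 3 h it was at 64.8, 111 and 70.9 CPM in JinB8 and 51.9, 55.4 and 54.05 CPM in Jurkat, and without the library that stood apart its interaction was 0.18.

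The fourth comparison asked whether antibodies or TSP1 moved these genes. With edgeR, CD3+CD28 against untreated cells called 0 of 45 members in Jurkat and 0 in JinB8 (0% and 0% of all genes). CD3+CD28+TSP1 against TSP1 called 0 and 0 (0.0925% and 0% of all genes), and CD3+CD28+TSP1 against CD3+CD28 called 0 and 0 (0% and 0%). An unadjusted p under 0.05 was found for 2, 1, 1, 9, 1 and 5 members in the order given. Of the 18387 genes tested, 1402, 765, 881, 2637, 417 and 1842 had such a p, in the same order. That number is not given for the fit below without the library that stood apart. Counts of this kind are a description only. DESeq2 and limma voom also called 0 members in each of the 6. With no low-count filter a member was called in each JinB8 comparison of CD3+CD28+TSP1, as given at the end. The medians were 0.11, 0.074, 0.036, -0.058, -0.026 and -0.067. The untreated group holds 1 library per line, at 1 h, which is assumed to vary like the other groups, and where no gene at all was called a count of 0 says nothing particular about the members. The JinB8 comparisons with CD3+CD28+TSP1 include the library that stood apart. Without it they also called 0 members, with an unadjusted p under 0.05 for 3 against TSP1 and 1 against CD3+CD28, and medians of -0.0012 and 0.0085.

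The other genes of the pathway were a separate list of 117, all tested. Over all times 74 were higher and 11 lower in JinB8, with a median of 0.18 and 31.5% of all genes tested higher and 28.8% lower. From 1 h to 6 h 83 rose and 9 fell in Jurkat and 86 rose and 5 fell in JinB8, with medians of 0.63 and 0.64. Of all genes tested, 24.8% rose and 23.6% fell in Jurkat, and 24.3% and 25.2% in JinB8. RUVBL2, an ATPase of snoRNP assembly, had the largest difference between the lines (67.1 ± 26.0 CPM in Jurkat and 133 ± 40.2 CPM in JinB8, SD over 10 libraries of 3 times, log2 fold change 1.01, SE 0.076, adjusted p = 3.81e-10), followed by the helicase DHX37 (0.70, adjusted p = 3.79e-09). SBDS, which matures the large subunit, had the largest in the other direction (68.7 ± 4.73 and 43.5 ± 6.17 CPM, -0.65, adjusted p = 4.61e-08), before ESF1 (-0.39, adjusted p = 4.46e-05).

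Introns of 7 members hold annotated small nucleolar RNAs: 6 in GNL3, 5 in NOP56, 4 in NOP58, 3 each in NCL and WDR43, and 2 each in DKC1 and TSR1. The median rise of these 7 from 1 h to 6 h was 0.66 in Jurkat (range 0.32 to 1.04) and 0.91 in JinB8 (range 0.81 to 1.40), and that of the other 38 was 0.84 and 1.00. The host genes thus lay inside the range of the rest. Poly(A) libraries do not measure the small RNAs themselves.

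The isoform table gave a further measure, the share of a gene's counts on isoforms annotated as retained introns, which was chosen after values were seen. It was examined in the 29 members, of 4974 genes in all, with at least 100 counts in every library and a mean share of at least 1%. In Jurkat every 6 h library was below every 1 h library in 10 of 29 members (34.5%, against 20.5% of the 4974 genes) and above in 2 (6.9%, against 8.46%). In JinB8 it was below in 16 (55.2%, against 24.0%) and above in 3 (10.3%, against 8.32%). The median difference of the members was -1.24 percentage points in Jurkat and -1.46 in JinB8, against -0.56 and -0.624 over the 4974 genes. These are estimates that divide ambiguous reads among isoforms, and no test was made.

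NOC2L, a large subunit factor, had shares of 34.1%, 34.4%, 35.2% and 41.8% in Jurkat at 1 h and 20.5%, 26.7% and 21.7% at 6 h. In JinB8 the shares were 31.2%, 31%, 32.5% and 37.1% and then 22%, 19.4% and 21.8%. The times did not overlap in either line. The nucleolar GTPase GNL3 went from 24.5% to 31.5% to 19% to 19.9% in Jurkat and from 27.5% to 29.7% to 15.6% to 16.7% in JinB8, and NOP56 from 12.8% to 14.6% to 8.95% to 9.71% and from 13.7% to 16% to 8.16% to 8.83%. NPM1 went the other way, from 5.38% to 6.75% to 8.58% to 10.3% in Jurkat and from 5.78% to 7.16% to 10.9% to 11.3% in JinB8. At 3 h in JinB8 the share of NCL was 18.3%, 33.7% and 20.9%, highest in the library that stood apart.

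**Figure D5:**
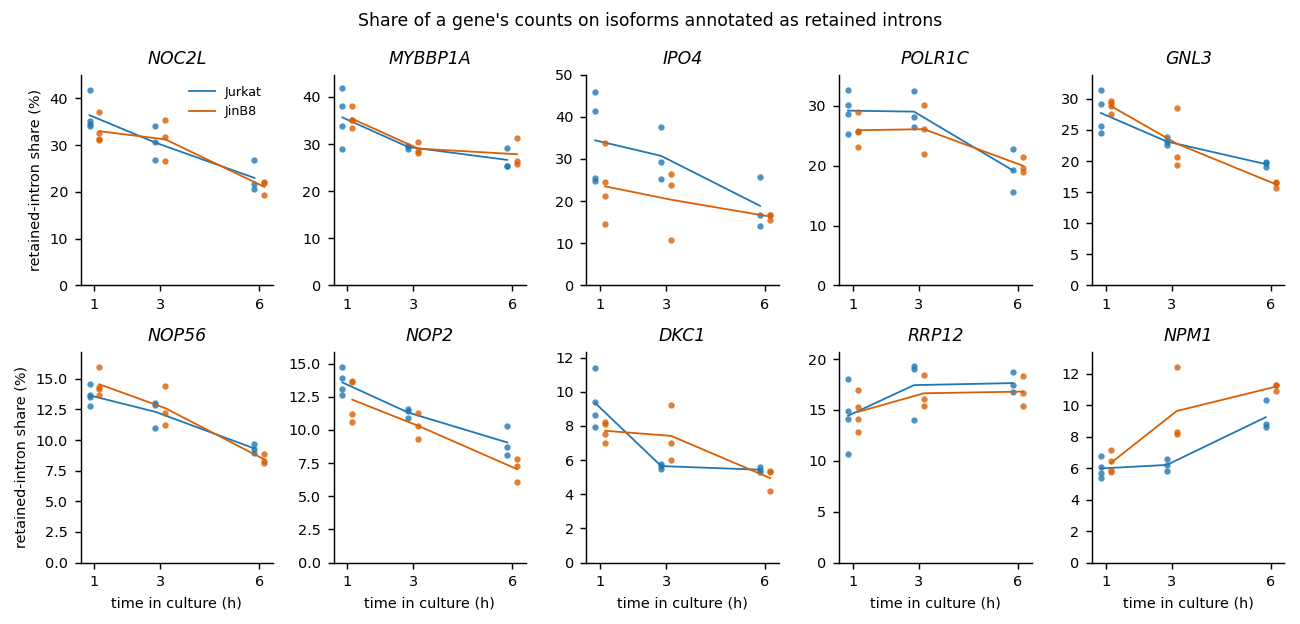
Share (%, vertical axes from 0) of a gene's counts on isoforms annotated as retained introns for 10 members against time in culture in Jurkat (blue) and JinB8 (orange), where points are libraries and lines join group means. The share was lower at 6 h than at 1 h in NOC2L, GNL3, NOP56 and NOP2 in both lines, overlapped between the times in RRP12, and was higher at 6 h in NPM1.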

How the data were processed

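RNA of Jurkat and JinB8 cells was sequenced by the authors. Per the labels and the study's methods, reads were trimmed with Cutadapt 1.18, aligned to GRCh38 with STAR 2.4.2a in 2 passes and counted with RSEM 1.3.3 on GENCODE 36, and the deposited values are expected counts per gene and per isoform. The strand setting is not given in the sources used here. The batch that the authors adjusted with ComBat is not named in the sources used here, and no batch term was fitted. Of the columns of each table, 2 match no sample and were not used. Totals are given with the results, and floors cover counting error only. SEs come from the fit and include the spread among the libraries of a group, which differ in treatment.

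Expected counts were rounded, genes were kept by the filterByExpr rule (at least 10 counts, 15 in total), and TMM factors were applied. The 6 groups of line and time were fitted in edgeR 4.0.16 (R 4.3.3) with the quasi-likelihood test on all 18387 genes, with Benjamini-Hochberg adjustment over all of them and a threshold of 0.05. Every adjusted p is from this fit unless another tool, setting or set of libraries is named with it. The line comparison averages the 3 times. Treatment comparisons used means of line and treatment with time terms for each line. Log2 CPM used a pseudocount of 0.5. The fits were tested on simulated data, and the outcome is not reported here. Members and lists were chosen with earlier results of these data known. Members singled out were those with the highest mean CPM, not scaled to length, of each role, the 4 largest and 4 smallest differences in each main comparison and up to 5 with the smallest p of each interaction, and other members were named after their values were seen, to account for the list. TPM and retained-intron shares were computed from isoform counts, with lengths and isoform types of GENCODE 44, which covered 99.07% to 99.24% of counts. Promoters were those of RefSeq on GRCh38.p14. Alternatives were DESeq2 1.42.0, limma 3.58.1 voom with quantile normalization, upper-quartile factors, library totals, other low-count filters, a replicate block, treatment and time terms, subsets of treatments, and each library left out. Tables were read with data.table (version 1.17.8) and pandas 2.3.3 (Python 3.11.15), and figures matplotlib 3.10.9.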

Additional observations from a re-analysis of the deposited data

Results flagged for a closer look

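The 24 members singled out by rule were screened in both groups of 4 libraries, Jurkat and JinB8 at 1 h, for a library far from the others. Of the 48 sets of 4 values 2 had one, and chance gives about 1 in 20. NPM3 in the untreated Jurkat library at 1 h was at 30.22 CPM, with the other 3 libraries at 37.96 to 38.98 CPM. POLR1C in the TSP1 library of JinB8 at 1 h was at 31.91 CPM, with the others at 36.17 to 36.67 CPM.

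The change from 1 h to 6 h differed between the lines, by the edgeR interaction test, in 12 members. On the log2 scale it was larger in JinB8 by 0.65 in UTP4, 0.59 in NOP58, 0.56 in NOP56, 0.53 in DDX21, 0.52 in NOB1, 0.47 in NOLC1, 0.47 in NOP16, 0.40 in RRP12, 0.40 in POLR1B, 0.38 in IPO4 and 0.38 in DKC1. For UBTF the difference was -0.30. The change from 1 h to 3 h differed in NOB1, by 0.33.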

How the results depend on the processing

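From 1 h to 6 h, the alternatives called 36 to 41 members higher in Jurkat, 36 to 40 of them also called in the fit of the report, and 41 to 44 in JinB8, 41 to 42 of them also called there, with none lower (10.3% to 31% and 9.7% to 30.8% of all genes tested higher). Single genes, in the comparisons named for them, had 4543 values under the alternatives: 4200 kept their direction and side of the threshold, 265 kept the direction and lost the call, 48 gained one and 30 reversed. The cause of these changes was not tested.

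Shares in brackets are of all genes tested, higher and lower. The interaction from 1 h to 3 h called 3 members with DESeq2 (2.8% and 3.47%), 2 with voom (1.41% and 2.31%), 2 with upper-quartile factors (1.84% and 1.96%), 2 with library totals (1.33% and 1.69%), 3 with no low-count filter (2.43% and 1.23%), 3 with at least 1 CPM in every library (2.85% and 3.51%), and 0 in activated libraries alone or in the others alone. The interaction from 1 h to 6 h called 23 with voom (6.42% and 8.5%), 19 with upper-quartile factors (7.59% and 6.73%) and 19 with the 1 CPM filter (8.8% and 11.3%) (medians 0.30 and 0.28 with voom and upper quartile), and 0 in either subset. JinB8 from 1 h to 3 h called 29 with voom (15.7% and 17.4%) and 32 with totals (25.1% and 10.9%). Library totals moved medians to 0.36 (JinB8, 1 h to 3 h), 0.71 (JinB8, 3 h to 6 h), 0.33 (lines at 1 h), 0.40 (3 h) and 0.38 (all times). Activated libraries alone gave 15 members between lines at 1 h (14.7% of all genes tested higher) and medians of 0.155 (JinB8, 1 h to 3 h), 0.94 (JinB8, 3 h to 6 h) and 0.15 (lines at 3 h). The others alone gave 0 (JinB8) and 2 (Jurkat) from 1 h to 3 h (0.0846% and 1.43% of all genes tested higher), 17 and 13 from 3 h to 6 h (0.64% and 0.703%), 14, 8 and 16 between lines at 1, 3 and 6 h (13%, 4.68% and 5.9%), and medians of 0.38 (lines at 3 h) and 0.13 (interaction to 3 h), with fewer libraries. Between the lines over all times, 10 against 10 libraries with no time term gave 10 members (20.7% and 18.8%). With no low-count filter, CD3+CD28+TSP1 in JinB8 called 1 member against CD3+CD28 (0.81% and 0.165%) and 1 against TSP1 (0.976% and 0.333%).

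A paired fit with a replicate block of the 10 matched treatments and times called 36 members between lines (30.2% and 27.6%), 24 at 1 h (23.4% and 19.2%), 22 at 3 h (20.5% and 18.3%), 30 at 6 h (20.2% and 20.1%), 0 for the interaction to 3 h (0.707% and 0.843%) and 10 to 6 h (3.8% and 7.21%). Matched libraries shared a treatment and a time, and their deviations correlated at -0.299 to 0.152, over 0.1 in 1 of 10 pairs.

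Leaving out each library in turn gave 16 to 29 from 1 h to 3 h in JinB8, 0 to 5 for the interaction to 3 h and 10 to 19 for the interaction to 6 h as counts of members, and medians of 0.15 to 0.33 from 1 h to 3 h in JinB8, 0.78 to 0.92 from 3 h to 6 h in JinB8, 0.17 to 0.25 between lines at 1 h, 0.18 to 0.34 between lines at 3 h, -0.068 to 0.089 for the interaction to 3 h and 0.20 to 0.30 for the interaction to 6 h. The share of all genes tested is not given for each of these fits, so these counts are a description only. For the interaction to 6 h that share also rose without the library that stood apart, as given in the results.

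Small differences changed sign. Between the lines over all times, DDX18 was 0.032 with voom, 0.071 with totals and 0.023 without activation, NCL 0.038 with voom and 0.019 without activation (0.020 at 3 h), NPM1 0.072 with voom (adjusted p = 0.0379, a call), 0.043 with totals and 0.076 without activation, and NPM3 0.015 without activation. From 1 h to 6 h in Jurkat, NOB1 was -0.037 with voom, -0.024 with upper quartile, -0.0041 with the 1 CPM filter, -0.0063 without untreated libraries and -0.0038 with treatment terms, NPM1 0.038 with voom, and UTP4 0.0015 with totals and 0.078 without activation. With single libraries left out, DDX18 between lines over all times ran from -0.043 to 0.010, FBL from 1 h to 6 h in Jurkat ran from -0.017 to 0.097, NOB1 from 1 h to 6 h in Jurkat ran from -0.029 to 0.056 and NPM1 between lines over all times ran from -0.088 to 0.016. The JinB8 library that stood apart at 3 h turned DDX18 and NPM1, and the Jurkat CD3+CD28 library at 6 h turned FBL. All members were above the floor of 3 counts, with 93 to 39270 counts per library. The part of counting error in these sign changes was not tested.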
